A study of Mus musculus with 5 samples.

Results

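Thymic cells that had spent 4 h in culture with 0.1% ethanol were compared with an untreated thymic cell suspension, and no dexamethasone was present on either side. The comparison used 2 of the study's 5 Affymetrix arrays and was described across 9882 of 19764 named genes. Each gene was represented by the probe set with the highest mean log2 level over the 5 arrays, and only genes with a mean of 5.28 or more, that of the median gene, were kept. That mean covered 3 arrays from animals and 2 from cultures, so a gene high only in the animal suspensions passed more easily than a gene high only in culture. Values are on the log2 scale, as a level or as one level minus another, except where a fold is given.

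Every array held RNA of a suspension pooled from 3 males of the outbred CD-1 stock at 4 to 6 weeks of age. The untreated pool had received no treatment. The ethanol culture was kept at 37 °C and 5% CO2 in saturated humidity. The other arrays served as points of reference: a pool taken 4 h after phosphate-buffered saline (PBS) had been injected intraperitoneally, a pool taken 4 h after an injection of 0.2 mg dexamethasone per mouse, and a culture held for 4 h with dexamethasone, a synthetic glucocorticoid, under the same conditions as the ethanol culture. The labels name no transgene or mutation, and they do not say whether any pools shared animals. With 1 array per group, no difference has a replicate check and no test was run, and this number of arrays limits how precise any value is.

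The thymus is the organ in which T cells develop. Most of its cells are thymocytes that carry CD4 and CD8 together, and these pass through selection while in contact with epithelial cells, dendritic cells and macrophages held in a stroma of fibroblasts and vessels. Epithelium and stroma supply thymocytes with chemokines, Notch ligands, interleukin 7 and peptides on MHC molecules, and a thymocyte taken out of the organ no longer meets those cells in their place. Thymocytes are also cells that die readily outside the organ.

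The array medians over 45101 probe sets lay between 4.23 and 4.37. Pearson's r with the untreated array over all probe sets was 0.992 for PBS, 0.985 for dexamethasone injection, 0.963 for ethanol culture and 0.960 for dexamethasone culture. Thymocyte genes that define the organ had high levels on every array. Rag1, a subunit of the recombinase that assembles T cell receptor genes, measured between 11.89 and 12.34 on the 5 arrays. Cd4 lay between 9.76 and 10.05, and Cd8a between 10.72 and 11.92. Centring the arrays on their medians would add 0.11 to every difference between ethanol culture and untreated. Of the 47 gene lists described here, 6 had a median that changes sign with that shift, and they are named below as lists near 0.

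Genes with a lower level in ethanol culture were more frequent than genes with a higher level, and they reached much larger differences. At 2-fold or more, 797 genes were lower, 8.07% of the kept genes, and 306 were higher, 3.1%. At 4-fold or more the counts were 349 and 34. At 16-fold or more they were 93 and 1, and at 64-fold or more 19 and 1. The bulk of the genes stayed close to their untreated level, with 69.4% differing by less than 0.5 and a median difference of 0.01 over all kept genes. The SD of the difference over genes was 0.87, against 0.29 for the difference between the PBS and untreated pools, a pair that involved no culture.

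**Figure D1:**
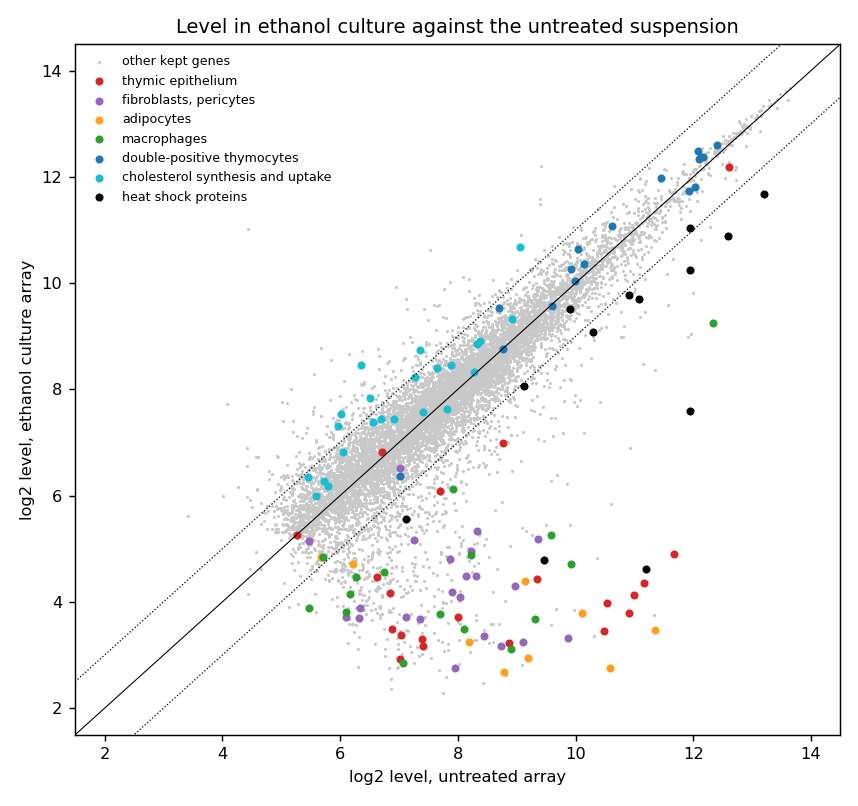
Log2 level of each of the 9882 kept genes on the ethanol culture array (vertical axis) against the untreated array (horizontal axis), with the solid line at equality and dotted lines at 2-fold. Most epithelial, stromal, adipocyte and macrophage genes (coloured points) lie below the lower dotted line, double-positive thymocyte genes lie along equality, and several cholesterol genes lie above the upper dotted line.

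Many of the lowest genes had little signal left. In ethanol culture, 194 of the 797 lower genes had a level under 4.26, the median of all probe sets on that array, and 76 of the 93 genes that were lower by 16-fold or more did. No call of presence or absence came with these values, so signal and background cannot be told apart at such levels. Folds given for such genes are ratios of measured signal and their size is uncertain. Among genes with more than 1 probe set, 6 of 462 lower and 2 of 168 higher genes had another probe set past 2-fold in the opposite direction. Of the 306 higher genes, 4 started under the untreated array's median of 4.37. Exactly equal values on both arrays were found for 294 kept genes.

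The PBS pool gave a second baseline for the same ethanol array. Against PBS, 751 genes were lower by 2-fold or more (7.6%) and 289 were higher (2.92%). The sign against PBS was the same for 794 of the 797 lower genes and for 304 of the 306 higher ones. Both comparisons share the ethanol array, so this says how alike the untreated and PBS baselines were. Relative to untreated, PBS itself was lower by 2-fold or more for 18 of the 797 genes and higher for 8 of the 306.

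A second pair of arrays, dexamethasone culture minus dexamethasone injection, shared no array with the first and also set a 4 h culture against an animal pool. In that pair 762 genes were lower by 2-fold or more (7.71%) and 348 were higher (3.52%). A total of 613 lower genes were common to both lists, 76.9% of the first and 80.5% of the second. Among the higher genes 132 were common, 43.1% of the first list and 37.9% of the second. Over the kept genes, which do not count as replicates of each other, the pairs had a Pearson's r of 0.873 and a Spearman's rho of 0.712. Both members of the second pair had received dexamethasone, by injection or in the medium, so a gene whose response to the drug differed between animal and culture enters its difference.

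Both cultured arrays lay below all 3 animal arrays for 753 of the 797 lower genes. Over all kept genes that was so for 1993 (20.2%). Both lay above all 3 animal arrays for 272 of the 306 higher genes and for 2958 kept genes (29.9%). Many small differences therefore ran the same way on both cultured arrays, and the share among genes past 2-fold has to be read with the knowledge that the first pair was used to choose them.

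**Figure D2:**
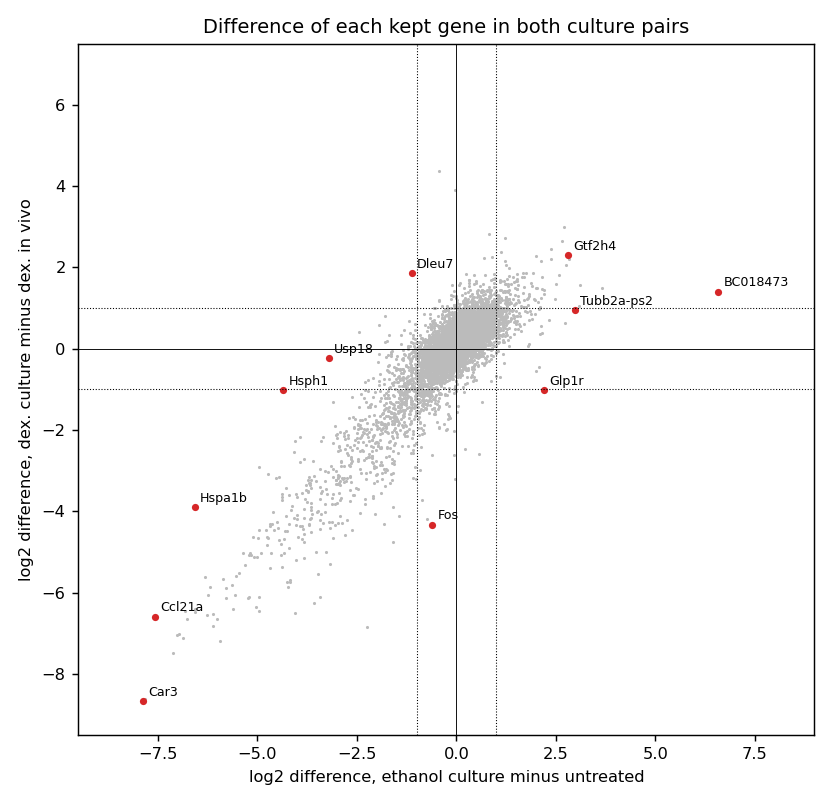
Log2 difference of each kept gene between ethanol culture and untreated (horizontal axis) and between dexamethasone culture and dexamethasone injection (vertical axis; dex. is dexamethasone), with dotted lines at 2-fold. The points fall along a common diagonal from Car3 at -7.87 and -8.68 upward, while Glp1r, Dleu7, Usp18, Hsph1 and Fos stand away from it.

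Thymic epithelial cells form the meshwork in which thymocytes mature, and their genes were among the lowest in ethanol culture. Of 21 kept genes of the epithelial list, 18 were lower by 2-fold or more and 0 were higher, with a median difference of -4.09 against 0.01 over all kept genes. Over all 24 listed genes, kept or not, 20 were lower by 2-fold or more and the median was -3.87. The summed level of the kept members was 14.41 untreated and 12.36 in ethanol culture on the log2 scale, a sum dominated by Ctsl. In a pooled suspension, fewer cells of a type and less RNA per cell cannot be told apart, and this holds for every cell type below.

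Krt18, a keratin of simple epithelium found in cortical thymic epithelium, measured 10.90 untreated, 11.13 after PBS, 11.40 after dexamethasone injection, 3.79 in ethanol culture and 3.90 in dexamethasone culture. The measured signal was 138-fold lower than untreated in ethanol culture, where it lay under the array median. The 3 animal arrays lay close together and both cultured arrays lay far beneath them. Prss16, the thymus-specific serine protease of cortical epithelium, stood at 11.17, 11.28 and 11.51 on the animal arrays and at 4.35 and 5.06 on the cultured ones. Tbata, a gene of thymic stroma, was 116-fold lower.

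Other members have roles in thymocyte selection and survival. Psmb11, the catalytic subunit of the thymoproteasome of cortical cells, differed by -4.07. Il7, the survival cytokine of early thymocytes, differed by -4.09, and Kitl, the ligand of the Kit receptor, by -3.66. Dll4, the Notch ligand of thymic epithelium, did not pass the level filter and differed by -0.40. Of the medullary genes, Aire, which drives expression of tissue-restricted antigens, measured 6.63 untreated and 4.47 in ethanol culture, and Fezf2, another regulator of such antigens, 6.85 and 4.17. Krt5 and Krt14, keratins of medullary epithelium, differed by -4.91 and -4.28.

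The list was not uniform. Ctsl, the cathepsin that processes MHC class II ligands in cortical epithelium and is also made by other cells, measured 12.61 untreated and 12.19 in ethanol culture, a difference of -0.42. The claudin genes Cldn3 and Cldn4 differed by -0.01 and 0.10, and these 3 genes were the only kept members inside 2-fold. Epcam, an epithelial adhesion molecule, differed by -1.76, and Ly75, an endocytic receptor of cortical epithelium, by -1.60.

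Fibroblast and matrix genes were lower to a similar degree. Of 16 kept members, 15 were lower by 2-fold or more, with a median of -3.69, and 20 of all 22 listed genes were. The summed level of the kept members was 12.17 untreated and 8.18 in ethanol culture. Col3a1, a fibrillar collagen, measured 9.88, 9.80 and 9.94 on the untreated, PBS and dexamethasone-injected arrays, and 3.32 and 3.46 on the ethanol and dexamethasone cultures. Its best probe set gave a 94.1-fold difference, while another of its 4 probe sets differed by 0.05. Dcn, the collagen-binding proteoglycan decorin, was 58.1-fold lower, Mgp, matrix Gla protein, 36.9-fold and Postn, periostin, 33.9-fold.

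Mural cells, which wrap small vessels, followed. Of 6 kept genes of smooth muscle and pericytes, 5 were lower by 2-fold or more and the median was -3.13. Over all 10 listed genes, 7 were lower and the median was -1.87. Rgs5, a regulator of G protein signalling typical of pericytes, measured 8.74, 8.50 and 9.04 in the animal pools and 3.17 and 2.98 in the cultures. Acta2, smooth muscle actin, was 18.1-fold lower, and Tagln and Tpm2, which bind actin, were 9.63-fold and 7.96-fold lower. Notch3 was the kept member inside 2-fold, at -0.49.

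The endothelial list differed less. Of 6 kept genes, 1 was lower by 2-fold or more and the median was -0.42. That gene was Plvap, a protein of endothelial fenestrae, at 7.01 untreated and 4.30 in ethanol culture. Pecam1, an adhesion molecule that leukocytes also carry, measured 7.68 and 8.01. Over all 14 listed endothelial genes, most of which were under the level filter, 4 were lower by 2-fold or more. The muscle list kept 2 genes, Myl7, an atrial myosin light chain, and Acta1, skeletal actin, and both were lower than untreated. Myl7 depended on the baseline, with a difference of -3.53 against untreated and -0.75 against PBS.

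Adipocyte genes gave the lowest median of the 47 lists over kept members, -6.11, a rank that depended on the level filter. Over all 14 listed genes, kept or not, 10 were lower by 2-fold or more. Their median was then -3.27, against -3.87 for the epithelial list. Of 9 kept members, 8 were lower by 2-fold or more, and the other, Slc2a4, the insulin-responsive glucose transporter, differed by -0.83. Car3, carbonic anhydrase 3, measured 11.34 untreated, 11.17 after PBS, 11.90 after dexamethasone injection, 3.47 in ethanol culture and 3.22 in dexamethasone culture. The measured signal was 234-fold lower than untreated in ethanol culture, where it lay under the array median. The summed level of the list was 12.82 untreated and 7.04 in ethanol culture. Fabp4, a fatty acid carrier, was 228-fold lower, Lpl, lipoprotein lipase, 79.5-fold, and Cfd, the adipokine adipsin, 75.8-fold. All 9 members were higher on the dexamethasone-injected array than on any other, against 13.6% of all kept genes. All 9 were lower on both cultured arrays than on any animal array, against 20.2% of all kept genes.

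Macrophages clear dying thymocytes. Of 16 kept macrophage genes, 15 were lower by 2-fold or more, with a median of -3.22, and 20 of all 22 listed genes were. The summed level was 13.23 untreated and 9.88 in ethanol culture. The 3 chains of complement C1q, C1qa, C1qb and C1qc, were lower by 37.1-fold, 49.1-fold and 55.3-fold. C1qb measured 9.30, 9.38 and 10.09 in the animal pools and 3.69 in each culture. Csf1r, the receptor for macrophage colony-stimulating factor, differed by -4.33 and Mrc1, the mannose receptor, by -4.23. Lyz2, lysozyme of myeloid cells, kept a readable signal, with 12.34 untreated, 9.24 in ethanol culture and 8.83 in dexamethasone culture. Hmox1, heme oxygenase 1, was the member inside 2-fold, at -0.87.

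**Figure D3:**
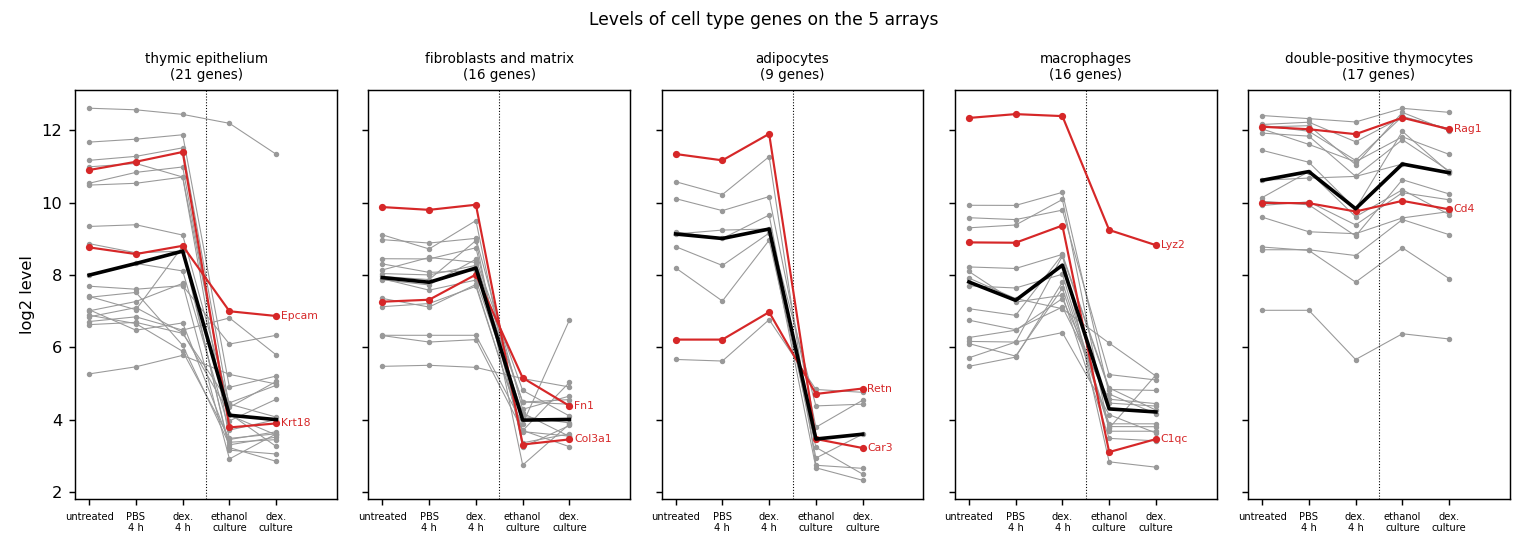
Log2 level on each of the 5 arrays for the kept genes of 5 lists, with a thin line joining the values of 1 gene, the thick black line the list's median, red lines a pair of named genes per list, and a dotted line between animal and cultured arrays (dex. is dexamethasone). The epithelial, matrix, adipocyte and macrophage medians stand between 7.30 and 9.27 on the animal arrays and between 3.47 and 4.30 in culture, and the double-positive median stays between 9.83 and 11.07.

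Dendritic cells and other antigen-presenting cells differed by less than macrophages. Of 6 kept dendritic cell genes, 3 were lower by 2-fold or more and 1 was higher, with a median of -1.44. Fscn1, the actin bundler of mature dendritic cells, measured 9.61 untreated and 7.12 in ethanol culture, and Irf8, a transcription factor of the dendritic lineage, 8.48 and 6.57. Cd83, an activation marker, was 3.70-fold lower. The higher member was Ccr7, a chemokine receptor that maturing thymocytes carry as well, which is described with those cells.

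Of 12 kept genes of MHC class II presentation and co-stimulation, 9 were lower by 2-fold or more, with a median of -1.65. H2-Ab1, a class II chain, measured 11.15 untreated, 11.33 after PBS, 11.07 after dexamethasone injection, 8.48 in ethanol culture and 7.33 in dexamethasone culture. Cd74, the invariant chain, was 4.54-fold lower, and Ifi30, a lysosomal reductase that prepares antigens, 5.36-fold. All 12 members lay lower on both cultured arrays than on any animal array, against 20.2% of all kept genes. H2-Eb1 showed the limit of a single baseline: it measured 8.76 untreated, 10.11 after PBS and 8.71 in ethanol culture. Epithelium, dendritic cells and macrophages all carry class II molecules, and the part of each in this difference was not tested.

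Other blood cell types gave small or mixed differences. Among 8 kept B cell genes, 3 were lower by 2-fold or more and the median was -0.79. Blnk, an adaptor of the B cell receptor, was 2.75-fold lower, while Ighm, the mu heavy chain, differed by -0.12. None of 4 kept genes of natural killer and cytotoxic cells reached 2-fold, and Gzma, granzyme A, differed by 0.59. Of 9 kept granulocyte genes, 1 was lower, Mmp9, a matrix protease, at -2.43. The granulocyte median was -0.36 against untreated and -1.01 against PBS, and 6 of the 9 genes were highest on the PBS array, against 15.4% of all kept genes. Hba-a1, a hemoglobin chain that marks red cells, measured 12.78 untreated, 11.96 after PBS and 13.04 in ethanol culture, and the erythroid median of 2 kept genes lay near 0.

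Chemokines made by stroma and myeloid cells were mostly lower among the genes that passed the level filter. Of 17 kept chemokine genes, 15 were lower by 2-fold or more, with a median of -3.42. Over all 27 listed genes, 18 were lower and the median was -1.68. Ccl2, Ccl3, Ccl4 and Cxcl14, which did not pass the filter, differed by -0.06, -0.03, 0.0 and 0.30. Ccl25, which attracts thymocytes through Ccr9, measured 11.67, 11.75 and 11.87 on the animal arrays and 4.90 and 5.21 in culture. Cxcl12, the ligand of Cxcr4, measured 10.48 untreated and 3.46 in ethanol culture, under the array median, while another of its 3 probe sets differed by 0.24. Ccl21a, which draws maturing thymocytes to the medulla through Ccr7, was 190-fold lower, although its probe set may also read near-identical copies of the gene. Ccl5, which T cells and natural killer cells also make, differed by -2.45, and Cxcl1, a neutrophil attractant, by -0.14.

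The complement list was lower in every kept member. All 8 were lower by 2-fold or more, with a median of -4.95. Over all 13 listed genes, kept or not, 11 were lower and the median was -2.76. C3ar1 and C5ar1, under the level filter, differed by -0.75 and 0.21. Besides the C1q chains C3, the central component, was 46.5-fold lower at 10.37 untreated and 4.83 in ethanol culture. Serping1, the C1 inhibitor, differed by -4.69. Lysosomal genes, which every cell uses and phagocytes use heavily, were split. Of 19 kept members 9 were lower by 2-fold or more and 1 was higher, with a median of -0.56. Ctsh, a cathepsin, was 7.27-fold lower and Grn, progranulin, 4.06-fold, whereas Npc2 and Psap, which handle sterols and sphingolipids in lysosomes, differed by 0.12 and -0.01.

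The lists of other cell types and accessory functions held 154 of the 9882 kept genes (1.56%). They held 106 of the 797 lower genes and 2 of the 306 higher ones, and 17 of the 25 lowest genes. Among the rest of the 25 lowest were Ubd, a ubiquitin-like modifier, Hspa1b, Dsp, the desmosomal protein desmoplakin, Cnmd, Wfdc18, Lifr, the receptor for leukemia inhibitory factor, Igfbp5, a binding protein of insulin-like growth factors, and Cbr2. Dsp measured 9.09, 9.05 and 9.57 in the animal pools and 2.81 and 3.02 in culture. Ubd stood at 10.32 untreated and 3.35 in ethanol culture, and Lifr at 9.59 and 3.57.

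**Figure D4:**
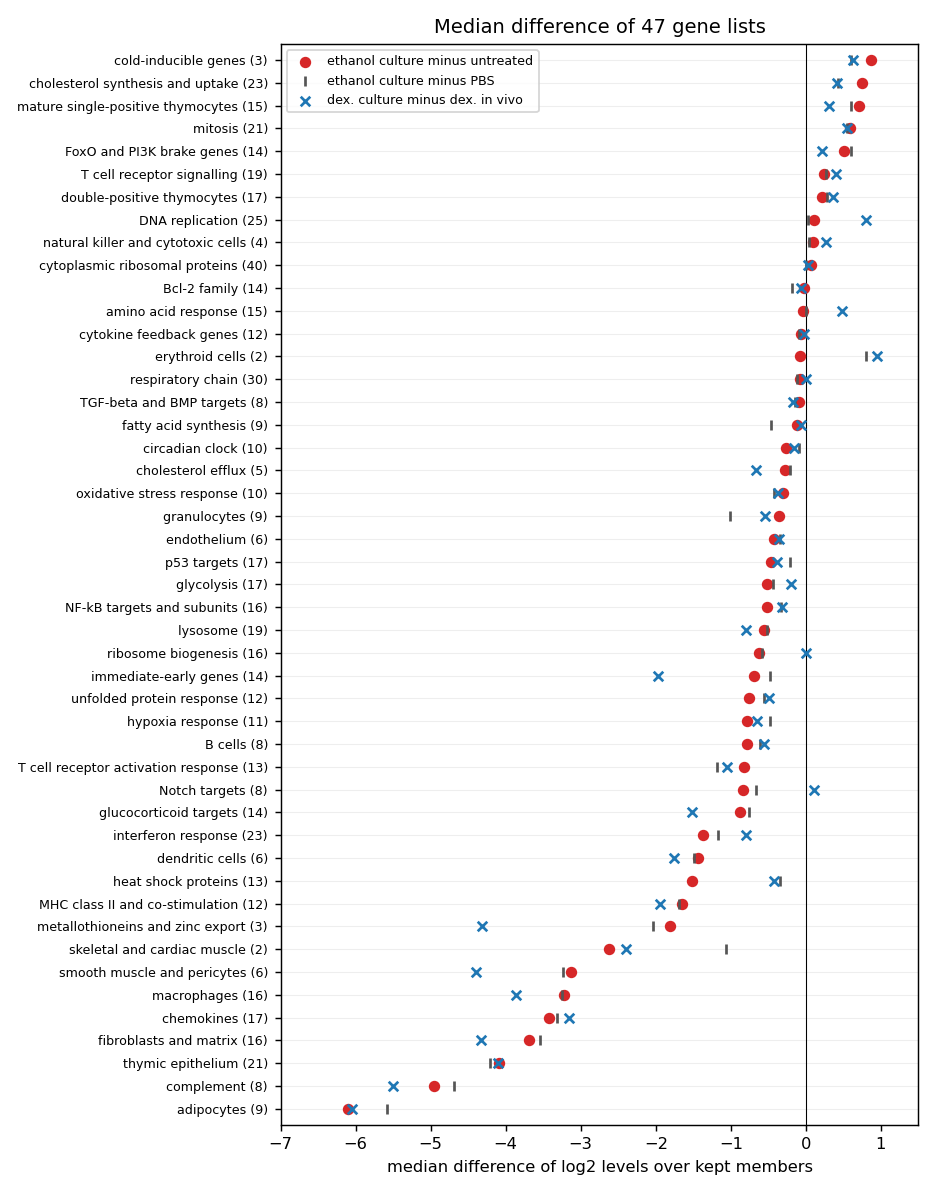
Median difference of log2 levels over the kept members of each of 47 gene lists (number of kept members in brackets) for ethanol culture minus untreated (red circles), ethanol culture minus PBS (grey bars) and dexamethasone culture minus dexamethasone injection (blue crosses). Adipocyte, complement, epithelial and matrix lists lie at the low end with all 3 marks below -3.5, and the heat shock list stands at -1.51 for the untreated baseline alone.

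Double-positive thymocyte genes stayed within 2-fold of their untreated level by the probe sets used. By those probe sets none of 17 kept members differed by 2-fold or more, the median was 0.22, and the differences ran from -0.65 to 0.83. Other probe sets of Tcf12, Lef1, Arpp21 and Cd1d1 differed by up to 1.42, 1.33, 1.01 and 1.00. Satb1, a chromatin organiser of thymocytes, measured 12.41 untreated, 12.32 after PBS, 12.23 after dexamethasone injection, 12.60 in ethanol culture and 12.49 in dexamethasone culture. Bcl11b, a factor that commits cells to the T lineage, was 1.44-fold higher in ethanol culture and Lef1, a factor of the Wnt pathway, 1.51-fold. Cd1d1, the molecule on double-positive cells that selects natural killer T cells, was 1.78-fold higher. Ptcra, the pre-T cell receptor chain of the stage before, was 1.57-fold lower. The ethanol array was the highest of the 5 for 11 of the 17 genes, against 19.3% of all kept genes.

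Of 19 kept genes of T cell receptor signalling, none reached 2-fold by the probe set used, and the median was 0.24. Other probe sets of Cd247, the zeta chain of the receptor, and of Trat1, an adaptor, differed by up to 1.96 and 1.54. Lck, the kinase that starts the signal, measured 12.62 untreated and 12.60 in ethanol culture. Plcg1, a phospholipase of the pathway, was 1.80-fold higher, and Cd28, the co-stimulatory receptor, differed by 0.58.

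Genes of mature single-positive thymocytes, the cells about to leave the thymus, were higher at the median by 0.71. Of 15 kept members, 5 were higher by 2-fold or more and 2 were lower. Klf2, a transcription factor that enables exit, measured 8.09, 8.32 and 8.50 on the animal arrays and 10.11 and 10.00 in culture, and it was 4.08-fold higher in ethanol culture than untreated. S1pr1, the egress receptor and a Klf2 target, measured 6.14, 6.08 and 6.32 on the animal arrays and 7.34 in ethanol culture, but 6.47 in dexamethasone culture. Ccr7 went from 8.30 to 9.62, and Gimap3, a GTPase of lymphocyte survival, was 2.98-fold higher. The lower members were Cd44, an adhesion receptor, and Ly6c1, both of which other cells of the suspension also carry.

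Klf2, S1pr1 and Il7r are targets of FoxO1, a factor that growth factor signalling through PI3K keeps out of the nucleus. In the list of FoxO targets and PI3K brakes, 4 of 14 kept members were higher by 2-fold or more, 0 were lower, and the median was 0.50. These were Arrdc3, Klf2, S1pr1 and Il7r, and all but Arrdc3 are also counted in the single-positive list. The median was 0.60 against PBS and 0.21 in the second pair. Il7r, the interleukin 7 receptor chain, measured 8.67 untreated, 9.06 after PBS, 9.46 after dexamethasone injection, 9.74 in ethanol culture and 10.68 in dexamethasone culture. Arrdc3, an alpha-arrestin, measured 7.43 untreated and 9.51 in ethanol culture, but 8.57 after dexamethasone injection and 8.13 in dexamethasone culture, so the second pair ran the other way. Txnip, also an alpha-arrestin and a brake on glucose uptake, differed by -0.03.

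Genes that T cell receptor signals induce had lower levels. In the list of the activation response, 6 of 13 kept members were lower by 2-fold or more, 0 were higher, and the median was -0.82. Egr2, a transcription factor induced during selection, measured 8.33, 8.09 and 7.15 on the animal arrays and 4.73 and 4.38 in culture, and was 12.1-fold lower in ethanol culture than untreated. Egr1 was 7.89-fold lower, Cd69, an early activation marker that holds cells in the tissue, 7.08-fold, and Nr4a1, a nuclear receptor that reports receptor signal strength, 3.99-fold. Cd5, a surface molecule that scales with signal strength, measured 9.78 untreated and 8.59 in ethanol culture. For 7 of the 13, those 5 and Nab2 and Nr4a3, both cultured arrays lay lower than all animal arrays, against 20.2% of all kept genes. Stromal and myeloid cells also express Egr1 and Nr4a1, and the part of these cells in the difference was not tested.

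Notch targets were lower in 4 of 8 kept members, with a median of -0.84. Dtx1, a Notch-induced ubiquitin ligase, measured 6.63 untreated and 4.95 in ethanol culture, and Hes1, a repressor that Notch induces, 6.15 and 4.94. Myc, a growth regulator under Notch and receptor control, was 3.02-fold lower, while Notch1 itself differed by 0.06. Against PBS, 2 of the 8 were lower by 2-fold or more, and Hes1 differed by -0.55. In the second pair 1 was lower by 2-fold or more and the Notch median was 0.11. Dtx1 was already low in the dexamethasone-injected pool, at 4.64, against 4.97 in dexamethasone culture.

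Feedback genes of cytokine signalling were split, with 4 of 12 kept members lower by 2-fold or more, 2 higher and a median near 0. Cish, which interleukin 2 and 7 signals induce through STAT5, measured 7.35, 7.31 and 7.19 on the animal arrays and 5.79 and 5.74 in culture. Bcl2, a survival gene downstream of interleukin 7, was 2.56-fold lower and Socs2 2.37-fold. Against PBS, 2 of the 12 were lower by 2-fold or more, and Socs2 differed by -0.53. Pim1, a survival kinase, and Il6ra, a chain of the interleukin 6 receptor, were the higher members at 1.17 and 1.28. Among NF-kB targets and subunits, 4 of 16 were lower, with a median of -0.52. Icam1, an adhesion molecule, was 4.08-fold lower, and Nfkbia, the inhibitor that NF-kB induces, differed by -0.18.

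Interferon response genes were lower in 14 of 23 kept members, with 0 higher and a median of -1.37. Cxcl10, a chemokine that interferon induces, measured 8.44, 7.84 and 7.41 on the animal arrays and 3.48 and 4.51 in culture. Oasl2 was 19.5-fold lower, Ifit1 12.8-fold and Iigp1 9.94-fold. Usp18, a brake on the interferon receptor, was at 8.32 untreated and 5.11 in ethanol culture but at 8.98 in dexamethasone culture. The untreated array was the highest of the 5 for 17 of the 23 genes, against 1981 of the 9882 kept genes, and the median was -1.18 against PBS and -0.79 in the second pair. Epithelial and macrophage genes were lower on the same arrays, and their part in the interferon difference was not tested.

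Immediate-early genes, which respond within minutes to growth factors, stress and handling, were lower in 5 of 14 kept members, with a median of -0.69. Klf4 was 5.58-fold lower, Ier3 3.69-fold and Jun 3.11-fold. Fos, a subunit of AP-1, measured 6.83 untreated, 6.54 after PBS, 10.80 after dexamethasone injection, 6.21 in ethanol culture and 6.47 in dexamethasone culture. The dexamethasone-injected pool was the highest array for 11 of the 14 genes, against 13.6% of all kept genes, and in the second pair, whose median was -1.97, injection and culture cannot be told apart.

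Genes that glucocorticoids induce were lower in ethanol culture even though neither arm had received dexamethasone. Of 14 kept glucocorticoid targets, 6 were lower by 2-fold or more, with a median of -0.87. Klf9, a direct target of the receptor, measured 8.06 untreated, 7.70 after PBS, 9.77 after dexamethasone injection, 5.05 in ethanol culture and 7.65 in dexamethasone culture. Cebpd, a transcription factor, was 6.18-fold lower. Another of the 7 probe sets of Klf9 differed by 0.18, and the other probe set of Cebpd by 0.0. The targets most used as thymocyte readouts were near their untreated level, with Tsc22d3, the glucocorticoid-induced leucine zipper, differing by 0.07 and Fkbp5, an Hsp90 co-chaperone, by -0.35. The genes that were lower are also expressed by stromal and fat cells, whose markers were lower on the same array, and their part was not tested.

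Metallothioneins, which bind zinc, belonged to the same group. Mt1 measured 7.59 untreated, 7.89 after PBS, 10.90 after dexamethasone injection, 4.12 in ethanol culture and 5.36 in dexamethasone culture, and Mt2 was 3.50-fold lower in ethanol culture. Slc30a1, a zinc exporter that the same metal sensor controls, was 2.90-fold lower. The other probe sets of Mt1 and Slc30a1 differed by 0.21 and -0.07. Targets of TGF-beta and BMP showed 2 of 8 lower, Id1 and Id2, inhibitors of helix-loop-helix factors, at -1.29 and -1.11, with a list median near 0. Among 10 clock genes, Bhlhe40 and Clock were lower than untreated by 2.41-fold and 2.17-fold, and the median was -0.26. Against PBS they differed by -0.69 and -0.32, and 0 of the 10 were lower by 2-fold or more. Another of the 3 probe sets of Clock differed by 0.56 from untreated.

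Heat shock genes gave a difference that turned on the untreated array. Of 13 kept members, 11 were lower in ethanol culture than untreated, with a median of -1.51. Against PBS only 2 were lower by 2-fold or more, with a median of -0.35, and in the second pair 3 were, with a median of -0.42. Hsph1, a chaperone of the Hsp110 family, measured 11.94 untreated, 8.45 after PBS, 8.73 after dexamethasone injection, 7.59 in ethanol culture and 7.72 in dexamethasone culture. The untreated array stood alone at the top, and the difference between the ethanol culture and the other animal pools was small beside it. The untreated array was the highest of the 5 for 12 of the 13 genes, and PBS was lower than untreated by 2-fold or more for 8 of them, against 38 of all kept genes. How the untreated suspension was handled before lysis is not given in the sources used here.

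Individual members differed in pattern. Hspa1b, an inducible Hsp70, measured 11.20 untreated, 7.73 after PBS, 8.75 after dexamethasone injection, 4.62 in ethanol culture and 4.85 in dexamethasone culture. It was lower in culture than in every animal pool, with a difference of -3.11 against PBS. Hspb1, a small heat shock protein that epithelial and muscle cells express, measured 9.47, 9.53 and 10.17 in the animal pools and 4.79 and 5.86 in culture, with no peak on the untreated array. Hspa8, the constitutive Hsp70, and Hsp90aa1 were 2.85-fold and 3.26-fold lower than untreated and differed by -0.35 and -0.56 from PBS.

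Heat shock factor 1 binds inverted repeats of GAA. The letters GAANNTTC, which read the same on both strands, were searched in the windows from 250 bases before to 50 after each gene start in RefSeq (GRCm38.p6). Of 12 listed heat shock genes with such a window, 9 held the letters, against 9.04% of 27025 genes. These are not all separate sites, because Hspd1 and Hspe1 have overlapping windows on opposite strands and share the same match. Hspa1a and Hspd1 had no probe set with a matching symbol, so the 12 are not the kept genes. The windows of 100 bases shown here belong to members with unlike patterns, Hspa1b and Dnaja1 with their peak on the untreated array and Hspb1 without it, and capitals mark the letters searched. They lie at chr17:34959273-34959372 on the minus strand, chr4:40722314-40722413 on the plus strand and chr5:135887772-135887871 on the plus strand.
Hspa1b: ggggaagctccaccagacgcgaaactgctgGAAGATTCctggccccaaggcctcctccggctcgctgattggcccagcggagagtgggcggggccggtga
Dnaja1: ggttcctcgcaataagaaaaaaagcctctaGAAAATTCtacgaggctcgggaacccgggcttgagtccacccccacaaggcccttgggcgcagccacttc
Hspb1: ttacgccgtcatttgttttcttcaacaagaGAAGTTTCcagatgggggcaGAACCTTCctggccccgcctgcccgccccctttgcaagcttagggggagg
The first match began 104 bases before the start in Hspa1b, 124 in Dnaja1 and 117 in Hspb1. The Hspa1b window was the same, letter for letter, as that of its neighbour Hspa1a, so the letters tell nothing that separates these genes. A match is a description of letters, and the same letters stood in genes with both patterns.

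Cold-inducible genes were described from a list with 3 kept members. By the probe sets used, all 3 were higher on both cultured arrays than on any animal array, against 29.9% of all kept genes. In ethanol culture 1 was higher than untreated by 2-fold or more, with a list median of 0.87. Cirbp, the cold-inducible RNA-binding protein, measured 5.68 untreated, 7.58 after PBS, 6.87 after dexamethasone injection, 8.78 in ethanol culture and 8.44 in dexamethasone culture. Its difference was 3.10 against untreated and 1.19 against PBS, so the baseline moved it as it did the heat shock genes. Rbm3, a related protein, measured 11.09 untreated and 11.95 in ethanol culture, but its other probe set differed by -3.18, so its direction is uncertain. Srsf5, a splicing factor, measured 11.51 and 12.14, and on the dexamethasone arrays 11.90 in the animals and 11.90 in culture, a difference of 0.0013.

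**Figure D5:**
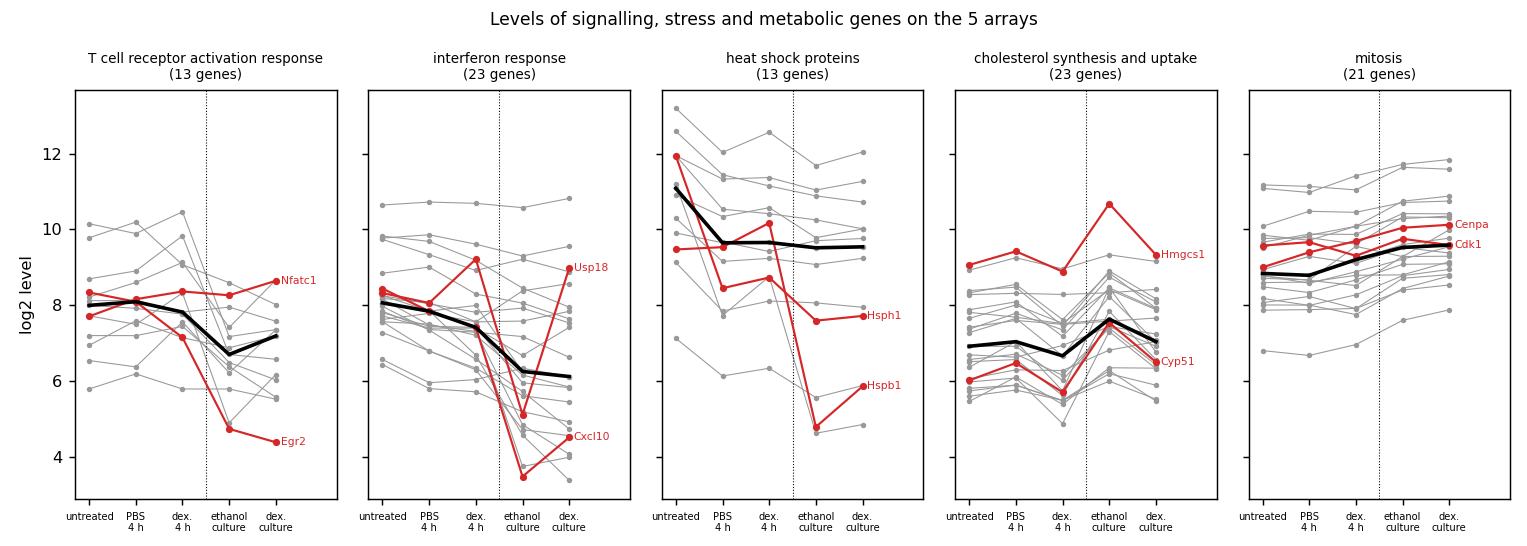
Log2 level on each of the 5 arrays for the kept genes of 5 lists, drawn as in the plot of cell type genes, with thin lines for genes, a thick black line for the median and red lines for named genes. The heat shock genes peak on the untreated array, most cholesterol genes peak in ethanol culture, and the mitosis genes stand a little higher on both cultured arrays.

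Other stress programmes were flat or lower. Genes of the unfolded protein response were lower in 3 of 12 kept members, with a median of -0.76, among them Hspa5, the chaperone BiP, at 11.56 untreated and 10.18 in ethanol culture, and Sdf2l1 at 8.09 and 6.47. Of 11 hypoxia genes, 4 were lower and 1 was higher, with a median of -0.79. Adm, the peptide adrenomedullin, was 4.95-fold lower and Mxi1, a Myc antagonist, 2.36-fold higher. Of 10 genes of the oxidative stress response, 2 were lower, Nqo1, a quinone reductase, and Srxn1, sulfiredoxin, and 1 was higher, Slc7a11, a cystine transporter.

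The p53 targets were mixed. Of 17 kept members, 4 were lower by 2-fold or more and the median was -0.46. Perp, a desmosome component that epithelium also expresses, was 32.7-fold lower and Phlda3 7.71-fold. Cdkn1a, the cell cycle inhibitor p21, measured 8.06 untreated and 7.01 in ethanol culture. Bax, a pore former of mitochondria, differed by -0.01, Mdm2, the ligase that restrains p53, by 0.22 and Bbc3, the BH3-only protein Puma, by 0.32.

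In the Bcl-2 family, 3 of 14 kept members were lower by 2-fold or more, 0 were higher and the median lay near 0. Bcl2a1a was 3.24-fold lower, Bcl2 measured 7.60 untreated and 6.24 in ethanol culture, and Bid, which links death receptors to mitochondria, was 2.51-fold lower. Bcl2l11, the BH3-only protein Bim, measured 10.03 and 10.09 without dexamethasone, in untreated cells and ethanol culture, and 11.31 and 11.33 with it. Mcl1, a survival protein of thymocytes, was 1.27-fold lower. The amino acid response list had a median near 0, with Cebpb and Nupr1 lower by 4.35-fold and 3.31-fold and Asns, asparagine synthetase, and Slc7a11 higher by 2.38-fold and 2.18-fold. Atf4, the factor that drives this response, measured 9.61 on both arrays.

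Cholesterol synthesis and uptake genes were higher as a list. Of 23 kept members, 6 were higher by 2-fold or more, against 3.1% of all kept genes, and 0 were lower. The difference was positive for 22, against 5001 of the 9882 kept genes, and the median was 0.75. Hmgcs1, which makes the precursor of mevalonate, measured 9.06, 9.42 and 8.89 in the animal pools, 10.68 in ethanol culture and 9.33 in dexamethasone culture. Cyp51, lanosterol demethylase, was 2.88-fold higher and Fdft1, squalene synthase, 2.59-fold. The ethanol array was the highest of the 5 for 19 of the 23 genes, against 19.3% of all kept genes.

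The size of this difference depended on the baseline. Against PBS the list median was 0.43, with 5 members higher by 2-fold or more, and in the second pair it was 0.41, with 2. Both dexamethasone arrays were lower than their counterparts for Hmgcs1. Srebf2, the factor that drives these genes, measured 7.65 untreated and 8.41 in ethanol culture.

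SREBP factors bind a sterol element. The letters TCACCCCAC, searched on both strands in the same windows, were present in 0.614% of genes and in 1 of 16 cholesterol genes with a window. That gene was Hmgcs1, in which the letters began 137 bases before the start. Its window is shown because it is the listed gene that carries the exact letters, at chr13:119690184-119690283 on the plus strand, with capitals marking them.
Hmgcs1: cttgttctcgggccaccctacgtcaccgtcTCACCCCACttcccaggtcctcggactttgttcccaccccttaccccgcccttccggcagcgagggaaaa
For the other 15 genes, no match says only that these letters are not in that window.

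Fatty acid genes did not follow, with 3 of 9 kept members lower by 2-fold or more and 0 higher. Scd1, a stearoyl-CoA desaturase strongly expressed in fat, measured 9.13 untreated and 4.39 in ethanol culture, Me1, malic enzyme, was 7.70-fold lower and Fasn, fatty acid synthase, 2.55-fold, whereas Fads2, a desaturase of polyunsaturated chains, was 1.83-fold higher. The list median was -0.12. Adipocyte markers were lower on the same array, and their part in the lower members was not tested. In the list of cholesterol efflux, Apoe, an apolipoprotein of macrophages, was 16.3-fold lower and Abca1, an exporter, 2.29-fold, while Abcg1 differed by -0.27.

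Glycolytic genes were lower in 6 of 17 kept members, with a median of -0.52. Tpi1, triosephosphate isomerase, measured 9.55, 9.55 and 9.03 on the animal arrays and 8.04 and 8.29 in culture. Hk2, hexokinase 2, was 3.91-fold lower, Pfkfb3, which makes an activator of glycolysis, 2.83-fold and Pgam1 2.75-fold. Gapdh was 1.24-fold lower. Both cultured arrays lay lower than all animal arrays for 11 of the 17, against 20.2% of all kept genes.

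Growth genes gave different pictures. Of 16 kept ribosome biogenesis genes, 4 were lower by 2-fold or more, with a median of -0.63, but the median of the second pair was -0.01. Nolc1, a nucleolar chaperone, measured 8.26 untreated, 7.90 after PBS, 7.02 after dexamethasone injection, 6.54 in ethanol culture and 6.47 in dexamethasone culture, a case in which the injected pool already stood between the untreated pool and the cultures. Rrs1 was 2.85-fold lower and Bop1 2.19-fold. Npm1, nucleophosmin, was 1.05-fold higher.

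Mitosis genes differed by small amounts of the same sign. All 21 kept members were positive, against 5001 of the 9882 kept genes. The median was 0.59 and the range 0.18 to 1.04, and 1 reached 2-fold, a share near that of all kept genes. Both cultured arrays lay above all animal arrays for 19 of the 21, against 29.9% of all kept genes. Cenpa, the centromeric histone, had the largest difference, 1.04, and measured 10.04 in ethanol culture and 10.12 in dexamethasone culture. Mki67, the proliferation marker Ki-67, measured 11.08, 10.97 and 11.41 in the animal pools and 11.72 and 11.84 in culture. Nusap1, a spindle protein, was 1.86-fold higher in ethanol culture than untreated.

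DNA replication genes did not differ to that degree. None of 25 kept members reached 2-fold and the median was 0.10, with Mcm2, a subunit of the replicative helicase, at 9.28 untreated and 8.61 in ethanol culture and Lig1, DNA ligase 1, at 8.41 and 9.12. In the second pair the median was 0.80, with the dexamethasone-injected pool low. The 40 cytoplasmic ribosomal protein genes spanned only -0.02 to 0.25, with a median of 0.07. The 30 respiratory chain genes had a median near 0, and Cycs, cytochrome c, was the 1 gene past 2-fold, at 11.01 untreated and 9.90 in ethanol culture.

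The genes with the largest upward differences were mostly outside the lists, which held 20 of the 306 higher genes. BC018473 measured 4.44 untreated, 2.97 after PBS, 9.35 after dexamethasone injection, 11.02 in ethanol culture and 10.75 in dexamethasone culture, a 95.8-fold difference from untreated. It was high on both cultured arrays and on the dexamethasone-injected one. Its other probe set differed by 0.86. St6galnac1, a sialyltransferase, measured 4.07, 4.42 and 6.17 on the animal arrays and 7.72 and 7.66 in culture. Gtf2h4, a subunit of the transcription factor TFIIH, was 6.95-fold higher, with 9.41, 9.82 and 9.58 in the animal pools and 12.20 and 11.88 in culture, and its probe sets differed by 2.43 to 3.16.

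Other genes of the 25 highest had various roles. Ctla4, an inhibitory receptor of T cells, measured 5.56 untreated, 5.48 after PBS, 8.80 after dexamethasone injection, 8.29 in ethanol culture and 9.43 in dexamethasone culture. It was high on both cultured arrays and in the dexamethasone-injected pool, and low in the untreated and PBS pools. Tnfrsf14, a receptor of the TNF family, measured 5.11, 5.62 and 4.38 on the animal arrays and 7.75 and 7.03 in culture, and Insl5, a peptide of the relaxin family, 5.84, 5.94 and 4.60 against 8.56 and 7.58. Neil1, a DNA glycosylase, was 5.06-fold higher.

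Beta-tubulin genes also stood among the highest. Tubb2a measured 9.39, 9.64 and 9.37 on the animal arrays, 11.59 in ethanol culture and 10.73 in dexamethasone culture, and Tubb2b 7.87, 8.19 and 7.99 against 10.03 and 9.47. The related pseudogene Tubb2a-ps2 was 7.91-fold higher by its best probe set. These sequences are close to each other, so probes may read more than 1 of them. Also among the 25 highest were Bambi-ps1, Zfyve28, Carns1, D17H6S56E-5, Mirt1, Tmem71, Cacna1e, Glp1r, Slc6a19, Fbxw10, A530083M17Rik, Zfand4 and Fam149b, all between 2.12 and 3.08, and Cirbp at 3.10.

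A few genes past 2-fold also differed widely between untreated and PBS. Glp1r, the receptor for glucagon-like peptide 1, measured 3.41 untreated, 7.67 after PBS, 6.95 after dexamethasone injection, 5.62 in ethanol culture and 5.92 in dexamethasone culture. It was higher in ethanol culture than untreated and lower than in the other animal pools. 1700097N02Rik had the same shape, at 7.59 untreated, 10.92 after PBS and 9.58 in ethanol culture. Sprr2a and Sprr2a1, small proline-rich proteins of keratinising epithelium, were lower by 4.05-fold and 4.76-fold than untreated and differed by -3.77 and -3.93 from PBS.

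Lower genes were not limited to weak signals. Among the genes lower than untreated by 2-fold or more, Dynll1, Eno1 and Gstp1 still gave some of the strongest signals in ethanol culture. Dynll1, a dynein light chain, measured 12.28 untreated and 11.06 in culture, Eno1, enolase, 11.66 and 10.46, and Gstp1, a glutathione transferase, 11.18 and 10.07. They differed by -0.56, -1.27 and -0.91 from PBS, and by -0.45, -0.86 and -0.76 in the second pair. Another of the 5 probe sets of Eno1 differed by 0.32 from untreated. H2-D1, an MHC class I heavy chain, measured 12.14, 11.86 and 11.66 on the animal arrays and 10.81 and 10.98 in culture by its best probe set. Its probe sets differed between -1.44 and 5.12, and class I genes are near-identical and polymorphic in outbred mice, so the gene that this signal reports is uncertain.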

How the data were processed

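Total RNA of 5 pooled thymic suspensions, 1 array per group, was hybridised to Affymetrix arrays. Per the submitters' processing notes, the authors obtained the values with RMA, with version and settings not given in the sources used here. Log2 levels of 45101 probe sets were deposited in the expression table. The deposited series matrix held the same measurements as linear intensity, and its log2 differed from that table by at most 7.11e-15. The deposited tables of dexamethasone comparisons were not used here.

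Symbols were updated through a RefSeq gene table (GRCm38.p6): 22692 probe sets carried a symbol in use there, 1563 took theirs from an accession, 11309 from an unambiguous synonym and 4759 kept the file's, while 4714 had none and 64 were controls. Differences of log2 levels were computed in Python 3.11.15 with pandas 2.3.3 and numpy 2.4.6, and 2-fold (an absolute difference of 1) was the threshold. Of the kept genes, 6489 had more than 1 probe set. The counting was checked on simulated data. Each group had 1 array, no test was run, and the spread between pools of a group is unknown.

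The genes and the 47 lists (733 genes) were chosen with earlier results of these data known, so they are descriptions. Named genes were drawn from the 25 highest and 25 lowest kept genes, in each list the 4 kept members with the largest absolute difference and the member with the highest mean level, the 8 genes past 2-fold whose difference moves most when PBS replaces untreated, and the 8 lower genes with the highest ethanol level. Further members were named after their values were seen. A listed gene without a matching symbol was left out. Some genes counted in the lists are not reported here by name. The alternatives were centring on the array median, quantile normalization, PBS as the baseline, the second culture pair, the mean of a gene's probe sets, a floor at the lower quartile of each array, other level filters and other fold thresholds.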

Additional observations from a re-analysis of the deposited data

Results flagged for a closer look

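In 2 of the kept genes the culture pairs differed by 2-fold or more in opposite directions, and this difference between the pairs was not tested. Dleu7 differed by -1.12 between ethanol culture and untreated and by 1.86 between dexamethasone culture and dexamethasone injection. It measured 6.15 untreated, 5.94 after PBS, 7.28 after dexamethasone injection, 5.03 in ethanol culture and 9.14 in dexamethasone culture, so dexamethasone culture was the highest array. Glp1r differed by 2.21 in the first pair and by -1.02 in the second, with the untreated array alone at the low end.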

How the results depend on the processing

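The counts of genes past 2-fold, 306 higher and 797 lower, stayed within 1.5 times under centring (423 and 719), quantile normalization (336 and 773), the PBS baseline (289 and 751), the second pair (348 and 762), the mean of probe sets (238 and 648) and the floor at the lower quartile. They moved more with the threshold and the level filter. At 1.5-fold, 1076 genes were higher and 1411 lower, at 4-fold 34 and 349, and with a mean level of at least 7, 154 and 268. With no level filter 424 were higher and 1411 lower. The 745 genes on the same side of 2-fold in both pairs became 1573 at 1.5-fold, 309 at 4-fold and 1229 with no level filter. Of 29 lists whose median was at least 0.5 from 0, all kept their sign under the 7 alternatives except Notch targets, at 0.11 in the second pair. Of 166 named genes past 2-fold, these reversed: 1700097N02Rik at -1.33 against PBS and -0.54 in the second pair, Glp1r at -2.05 and -1.02, Arrdc3 at -0.44 and Dtx1 at 0.33 in the second pair, and H2-D1 at 0.14 for the mean of its probe sets. The cause was not tested. No paired analysis was possible because each group had 1 array. Levels under the array median limit the size of the largest differences.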

Other observations

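Gene families that the lists did not hold, chosen after their values were seen, gave further descriptions. Brown fat differs from white fat by burning fuel for heat. Ucp1, the uncoupling protein that defines it, measured 8.80 untreated, 7.85 after PBS, 8.46 after dexamethasone injection, 4.01 in ethanol culture and 4.01 in dexamethasone culture. Cidea, Cox8b and Cox7a1, also typical of brown fat, differed by -4.59, -3.47 and -2.01. The other 6 genes of the set were under the level filter on these arrays and did not share a direction. Fabp3 and Ppargc1a differed by -2.04 and -0.29. Dio2, Prdm16, Elovl3 and Zic1 differed by 0.51, 0.41, 0.39 and 0.13. Basement membrane genes were lower in 6 of 8 kept members, with Lama3, a laminin chain of epithelium, at -3.65 and Col4a2 at -3.42, while Hspg2, perlecan, differed by 0.17. Genes of stratified, keratinising epithelium were lower in 12 of 13 kept members, with Krtdap at -3.87, Dmkn at -4.63 and Lor, loricrin, inside 2-fold at -0.41.

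In 3 further families some members were higher by 2-fold or more. Of 16 kept genes of intraflagellar transport, the machinery that builds cilia, 13 were positive and 4 were higher by 2-fold or more. Over all 9882 kept genes, 5001 were positive and 3.1% were higher by 2-fold or more. The median of the family was 0.56. Ift80 measured 8.61, 8.63 and 8.51 on the animal arrays and 10.06 and 9.33 in culture. Among 14 kept tubulin genes 3 were higher by 2-fold or more, the ones named among the highest genes, and 1 was lower, Tubb6, at 7.05 untreated and 4.58 in ethanol culture. Tuba1b, an abundant alpha-tubulin, measured 13.12 and 13.23. Of 10 kept genes of sialic acid enzymes, 3 were higher by 2-fold or more: St6galnac1, St8sia6 at 1.51 and Cmah at 1.18.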
